A study of Drosophila melanogaster with 6 samples.

Results

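The genes described here code for aminoacyl-tRNA synthetases of Drosophila hemocytes, the blood cells of the fly. They were chosen by name: a protein-coding gene of the count table was a member if its name is the three-letter code of its amino acid, or of a pair of amino acids, followed by RS, with or without the suffix -m for the mitochondrial enzyme. The rule found 33 of the 13395 genes in the table (12190 of them protein-coding), of which 18 are cytosolic and 15 mitochondrial by this suffix. It leaves out the cytosolic phenylalanine enzyme, whose alpha and beta subunits carry other names, and these were followed beside the members. The values came from 6 libraries of cells of 1 genotype, Hml-GAL4.delta, UAS-GFP, taken at 2 stages: wandering L3 larvae (larval, 3 libraries) and white prepupae (prepupal, 3 libraries). Cells were rinsed out of opened animals and sorted for GFP, so the libraries hold only cells that had used the Hml (Hemolectin) driver, and no genotype without the transgenes was compared. The paper states in general that experiments used different flies or cells and different days, but not how many animals went into a library or how these replicates were collected, so p-values measure only the spread between these libraries.

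Aminoacyl-tRNA synthetases join each amino acid to its own tRNA and thereby set the reading of the genetic code. The cytosolic enzymes serve the ribosomes that translate nuclear genes. The -m enzymes, also made from nuclear genes, serve the separate ribosomes inside mitochondria, which translate the few proteins of the mitochondrial genome. For 5 of the genes grouped as cytosolic (LysRS, GlyRS, ThrRS, GlnRS and HisRS) the table holds no -m gene of the same amino acid. Such genes may also make a mitochondrial form, which gene counts do not separate. The compartments compared below are thus groups by name. Macrophages, the main kind of hemocyte, change shape and begin to migrate at the onset of metamorphosis, and the 2 stages stand on either side of that change.

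All 33 genes passed the filter on low counts and were tested. Each was compared between the stages with edgeR's quasi-likelihood test, and the word called is kept for an FDR (false discovery rate, here the p adjusted by Benjamini and Hochberg over every tested gene) below 0.05. Levels are CPM (reads counted on a gene for every 1000000 in the library) after scaling with edgeR's TMM factors, and log2 fold changes are prepupal over larval with their standard error (SE). Of the synthetases 15 were called, against 53.9% of all 7914 tested genes. The 13 lower and 2 higher ones stand beside 27.3% of all genes called lower and 26.6% called higher. Among the cytosolic genes 9 of 18 (50%) were lower in prepupae, 1 was higher and 8 were not called, with a median log2 fold change of -0.23 (range -1.01 to 0.33). Among the mitochondrial genes 4 of 15 (26.7%) were lower, 1 was higher and 10 were not called, with a median of -0.17 (range -0.61 to 0.54). The median over all tested genes was -0.03. The mitochondrial median was -0.07 without larval replicate 1 or 2, and the cytosolic one -0.15 without larval replicate 3. Of the 5 cytosolic genes with no -m gene for their amino acid 2 were lower and 0 were higher. Over only the amino acids with a gene for each compartment, the cytosolic median was -0.19 and the mitochondrial one -0.18. The cytosolic share of lower genes was thus above that of all genes, and the mitochondrial share was close to it.

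The library totals were between 19228352 and 25958543 counts, and the first principal component of all genes (80.1% of the variance) separated the stages. The Hml transcript itself fell from 3206 to 6361 CPM in larvae to 83.8 to 248 CPM in prepupae. Of 8 plasmatocyte markers 7 were lower and 1 was higher in prepupae, with summed levels of 16460 to 24900 CPM in larvae and 4163 to 6712 CPM in prepupae. All 4 crystal cell markers were lower, with summed levels of 2048 to 3208 CPM and 555 to 1471 CPM. Of the 3 lamellocyte markers, which were near the floor apart from PPO3, PPO3 was higher, and atilla and ItgaPS4 were at 0 in prepupal replicate 2. Summed markers of salivary gland (6.39 to 9.01 CPM in larvae, 6.52 to 9.81 CPM in prepupae), muscle (10.5 to 13.4 and 10.9 to 14.5 CPM) and fat body (27.8 to 34.0 and 27.0 to 34.8 CPM) were low in every library. Of 5 fat body markers tested, Fbp1 (log2 fold change 0.69, edgeR FDR = 0.026) and Fbp2 (1.53, edgeR FDR = 0.0062) were higher and Lsp1gamma (-0.46, edgeR FDR = 0.022) was lower. The part of these markers in the results below was not tested, and in bulk libraries fewer cells of a type and less RNA per cell cannot be told apart.

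A gene's log2 fold change also moved with its length. Longer genes tended to have lower log2 fold changes, with a Spearman correlation of -0.40 over the 7873 tested genes of known length, a description across genes that are not independent. The cytosolic synthetase genes have exonic lengths of 1683 to 5453 bp (median 2500 bp) and the mitochondrial ones of 1482 to 4422 bp (median 2552 bp), against a median of 2083 bp over tested genes. Fold changes are therefore also given from a fit in which the length trend of every library was removed. In that fit 22.0% of all genes were called lower and 29.3% higher. Of the cytosolic genes 6 were lower and 4 higher (median -0.06), and of the mitochondrial genes 4 were lower and 4 higher (median 0.05). Whether the length trend is technical or part of the biology was not tested.

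**Figure D1:**
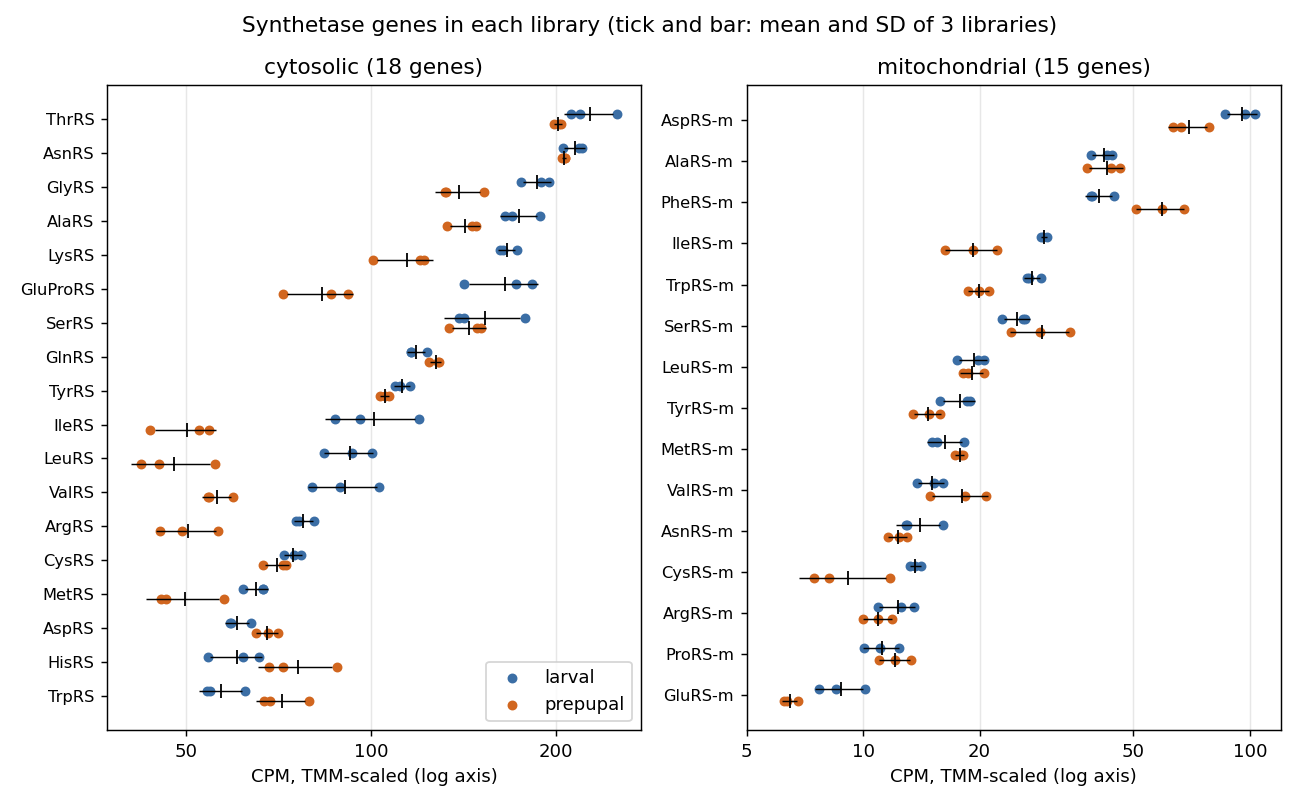
TMM-scaled level in CPM (log axis) of the 18 cytosolic (left) and 15 mitochondrial (right) synthetase genes, with 1 point per library (larval blue, prepupal orange) and the mean ± SD of 3 libraries in black. The stages are apart for IleRS, GluProRS, LeuRS, ValRS, ArgRS and LysRS on the left and for IleRS-m and PheRS-m on the right, while AsnRS and LeuRS-m overlap.

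The largest decreases were in 3 long cytosolic genes. IleRS, the isoleucine enzyme (chromosome 3L, 22288665 to 22292810, plus strand), had 95.9, 87.3 and 119.7 CPM in larval replicates 1 to 3 and 43.6, 52.4 and 54.4 CPM in the prepupal ones. Its highest prepupal library was well below its lowest larval one, and its prepupal mean was 49.7% of the larval mean. IleRS fell by 1.01 on the log2 scale (SE 0.15, edgeR FDR = 0.00046), and by 0.65 (SE 0.13, edgeR FDR = 0.0024) with the length trend removed. GluProRS (chromosome 3R, 23952136 to 23958391, minus strand) codes for a single protein that charges both glutamate and proline tRNAs, a fusion found in animals. Its levels were 171.8, 141.7 and 182.5 CPM in larval and 85.9, 71.9 and 91.6 CPM in prepupal libraries. The stages did not overlap, and GluProRS fell by 0.99 (SE 0.14, edgeR FDR = 0.00034), or by 0.52 (SE 0.09, edgeR FDR = 0.0011) with the trend removed. LeuRS, the leucine enzyme (chromosome 2L, 3510328 to 3514656, minus strand), was at 92.8, 83.6 and 100.3 CPM in larval and 45.2, 42.2 and 55.6 CPM in prepupal libraries. It again showed no overlap and fell by 0.95 (SE 0.14, edgeR FDR = 0.0004), or by 0.60 (SE 0.10, edgeR FDR = 0.00098) with the trend removed.

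ValRS, the valine enzyme (chromosome 2R, 13198850 to 13202709, plus strand), had 88.9, 79.9 and 103.0 CPM in larvae and 54.4, 54.1 and 59.6 CPM in prepupae. It fell by 0.69 (SE 0.12, edgeR FDR = 0.0014), and by 0.39 (SE 0.10, edgeR FDR = 0.0092) with the trend removed. Larval replicate 2 was the lowest larval library and prepupal replicate 3 the highest prepupal one for IleRS, GluProRS, LeuRS and ValRS alike. IleRS, LeuRS and ValRS, the enzymes of the branched-chain amino acids, are closely related class I synthetases. Their summed level was 250.8 to 323.0 CPM in larvae and 143.2 to 169.6 CPM in prepupae, which is 54.2% of the larval mean.

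ArgRS and LysRS, the arginine and lysine enzymes, are shorter genes and were also lower in both fits. ArgRS had 75.4, 80.6 and 76.4 CPM in larval and 45.2, 56.3 and 49.1 CPM in prepupal libraries (log2 fold change -0.63, SE 0.12, edgeR FDR = 0.0018). LysRS had 162.0, 163.8 and 172.3 CPM against 100.5, 120.0 and 121.8 CPM (log2 fold change -0.54, SE 0.11, edgeR FDR = 0.003). Neither gene overlapped between the stages, and with the trend removed their log2 fold changes were -0.51 (edgeR FDR = 0.003) and -0.39 (edgeR FDR = 0.0096).

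GlyRS, MetRS and AlaRS, the glycine, methionine and alanine enzymes, were lower only while the length trend was left in. GlyRS had 188.8, 175.4 and 194.8 CPM in larvae and 131.9, 132.1 and 152.3 CPM in prepupae, a log2 fold change of -0.43 (edgeR FDR = 0.0089) that became -0.22 (edgeR FDR = 0.071). For MetRS the values were -0.39 (edgeR FDR = 0.026) and -0.09 (edgeR FDR = 0.49), and for AlaRS -0.29 (edgeR FDR = 0.042) and -0.01 (edgeR FDR = 0.94). The calls of MetRS and AlaRS also turned on single libraries: MetRS was lost in 4 of the 6 fits that each left out 1 library (log2 fold change -0.50 to -0.32) and AlaRS in 5 (-0.32 to -0.22). The other 7 lower cytosolic genes were called in all 6 of these fits.

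TrpRS, the tryptophan enzyme (chromosome 3R, 9265027 to 9266904, minus strand), was the single cytosolic gene called higher. It had 54.6, 54.0 and 62.3 CPM in larvae and 66.8, 79.1 and 68.5 CPM in prepupae, so the stages did not overlap, but the gap between them was smaller than the range within either. It rose by 0.33 on the log2 scale (SE 0.12, edgeR FDR = 0.041), and by 0.30 (edgeR FDR = 0.031) with the trend removed. This call was kept only in the fit without larval replicate 3 among the 6 left-out fits (log2 fold change 0.25 to 0.41), and it was lost with scaling by total counts (0.13, edgeR FDR = 0.41). HisRS, the histidine enzyme, had 54.2, 61.7 and 65.7 CPM in larvae and 71.7, 87.8 and 68.1 CPM in prepupae. Its log2 fold change of 0.33 (SE 0.13) had an edgeR FDR of 0.063, which became 0.034 with the replicate number as a block, and it was 0.57 (edgeR FDR = 0.0066) with the trend removed. GlnRS and AspRS, the glutamine and aspartate enzymes, had log2 fold changes of 0.10 and 0.16 that were not called, and of 0.29 (edgeR FDR = 0.021) and 0.31 (edgeR FDR = 0.02) with the trend removed.

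The remaining 5 cytosolic genes, ThrRS, TyrRS, CysRS, SerRS and AsnRS, were called in neither fit, with log2 fold changes of -0.17 to -0.06. AsnRS, the asparagine enzyme, was the steadiest of them at 204.9, 218.1 and 220.5 CPM in larvae and 206.6, 204.2 and 206.4 CPM in prepupae. ThrRS had 218.4, 211.7 and 250.7 CPM against 202.0, 203.5 and 198.1 CPM, so its stages did not overlap although its log2 fold change of -0.17 was not called (SE 0.11, edgeR FDR = 0.2). Counted by overlap, 11 cytosolic genes had every prepupal library below every larval one, 4 had every one above and 3 overlapped. Over all tested genes 31.8% were apart in the lower and 31.2% in the higher direction.

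**Figure D2:**
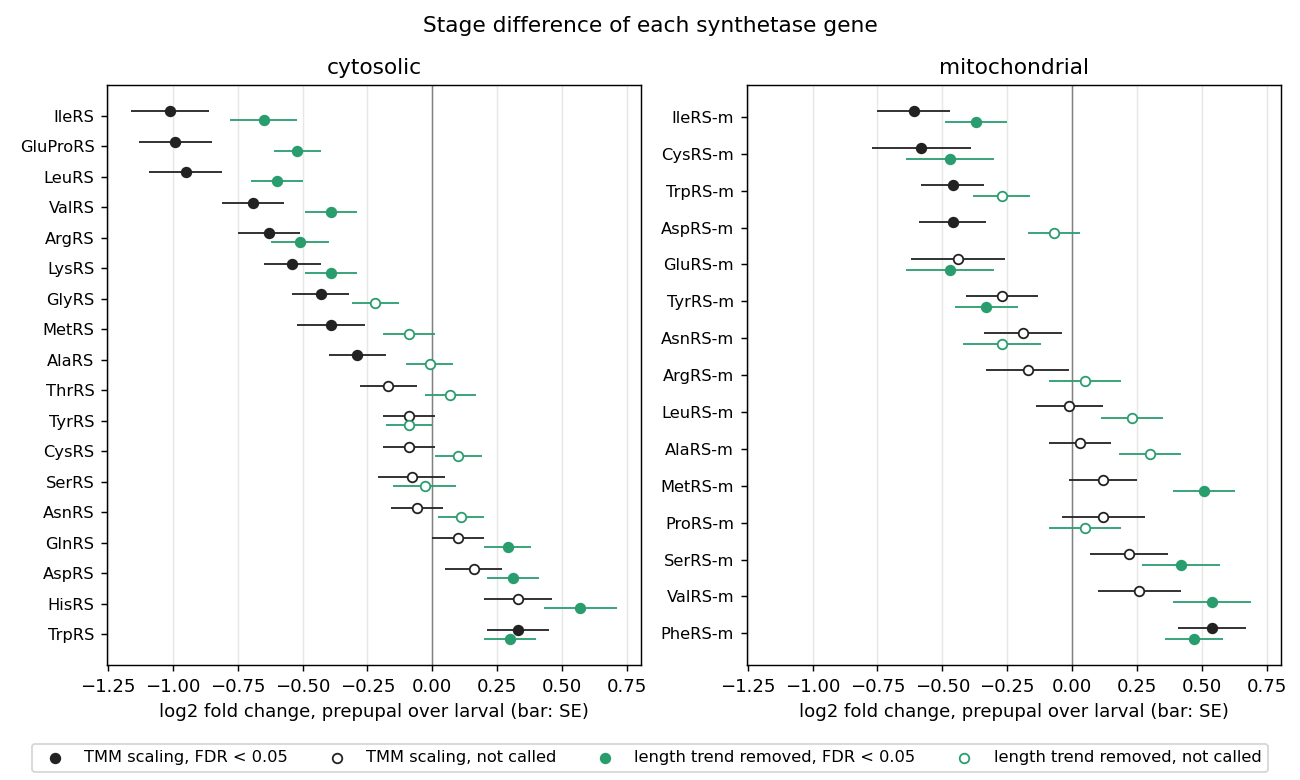
Log2 fold change, prepupal over larval, of each synthetase gene with its SE, from TMM scaling (black) and with the length trend removed (green); filled points have an FDR below 0.05. Removing the trend moves most genes to the right, and IleRS, GluProRS, LeuRS, ValRS, ArgRS and LysRS stay called lower, while TrpRS and PheRS-m stay called higher.

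In vertebrates several cytosolic synthetases, those for isoleucine, glutamate and proline, leucine, methionine, glutamine, lysine, arginine and aspartate, are held together in a multi-synthetase complex by 3 scaffold proteins. Of the 8 fly genes for these enzymes 6 were lower in prepupae and 0 were higher, with a median log2 fold change of -0.58. With the length trend removed 5 were lower and 2 were higher (median -0.45). Their summed level was 839.6, 805.6 and 892.7 CPM in larvae and 566.0, 580.3 and 623.6 CPM in prepupae, 69.7% of the larval mean. The other 10 cytosolic genes had 3 lower (ValRS, GlyRS and AlaRS) and 1 higher, with a median of -0.09. Their summed prepupal level was 89.7% of the larval one. With the length trend removed 1 of these 10 was lower and 2 were higher (median 0.03). The median exonic length was 2929 bp for the 8 genes and 2499 bp for the 10. Over all tested genes 27.3% were called lower and 26.6% higher, or 22.0% and 29.3% with the trend removed. The difference between these groups was not tested. None of the 3 genes for the scaffold proteins was called lower in either fit. AIMP2 rose (60.5, 74.7 and 73.7 CPM in larvae, 93.9, 109.9 and 85.0 CPM in prepupae, log2 fold change 0.47, edgeR FDR = 0.016), a call lost with the trend removed (0.27, edgeR FDR = 0.056). AIMP1 had a log2 fold change of 0.00, or -0.25 (edgeR FDR = 0.056) with the trend removed. AIMP3 had one of 0.33 (edgeR FDR = 0.089, or 0.029 with the replicate block), which turned to -0.09 (edgeR FDR = 0.53) with the trend removed.

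The cytosolic phenylalanine enzyme is built from equal numbers of alpha and beta subunits, and the transcripts of its subunits moved apart. Alpha-PheRS had 84.3, 94.5 and 86.1 CPM in larvae and 96.6, 125.0 and 96.8 CPM in prepupae (log2 fold change 0.27, edgeR FDR = 0.11, or 0.035 with the replicate block, and 0.24, edgeR FDR = 0.091, with the trend removed). Beta-PheRS had 88.6, 96.5 and 84.3 CPM in larvae and 71.4, 67.0 and 72.1 CPM in prepupae and fell by 0.36 (SE 0.11, edgeR FDR = 0.019), or by 0.29 (edgeR FDR = 0.028) with the trend removed. The ratio of alpha to beta in CPM was 0.951, 0.979 and 1.02 in larvae and 1.35, 1.87 and 1.34 in prepupae. Every prepupal ratio lay above every larval one. With 3 libraries a group the smallest p of an exact two-sided permutation test is 0.1, so no p is given for the ratios.

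Of the mitochondrial enzymes, IleRS-m (chromosome 3L, 16100280 to 16103482, plus strand) had the lowest log2 fold change with the trend left in, and CysRS-m and GluRS-m with it removed. It had 29.9, 28.8 and 29.3 CPM in larvae and 16.2, 19.2 and 22.2 CPM in prepupae. The larval libraries lay close together and the prepupal ones were spread more widely, with no overlap. IleRS-m fell by 0.61 (SE 0.14, edgeR FDR = 0.0048), or by 0.37 (edgeR FDR = 0.03) with the trend removed. CysRS-m, the mitochondrial cysteine enzyme, is a low gene at 13.2, 13.6 and 14.1 CPM in larvae and 7.48, 8.16 and 11.8 CPM in prepupae. It fell by 0.58 (SE 0.19, edgeR FDR = 0.027) and, with the trend removed, by 0.47 (edgeR FDR = 0.045), but its call was lost without larval replicate 1, larval replicate 3, prepupal replicate 1 or prepupal replicate 2 (log2 fold change -0.80 to -0.45).

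TrpRS-m and AspRS-m, the mitochondrial tryptophan and aspartate enzymes, were lower only with the length trend left in. TrpRS-m had 26.5, 28.9 and 26.8 CPM in larvae and 19.95, 18.65 and 21.15 CPM in prepupae (log2 fold change -0.46, SE 0.12, edgeR FDR = 0.0093, and -0.27, edgeR FDR = 0.055, with the trend removed). AspRS-m, at 4422 bp the longest mitochondrial gene, had 97.4, 86.3 and 103.2 CPM in larvae and 63.45, 66.55 and 78.35 CPM in prepupae (-0.46, SE 0.13, edgeR FDR = 0.011, and -0.07, edgeR FDR = 0.62). Neither gene overlapped between the stages.

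PheRS-m, the mitochondrial phenylalanine enzyme, which unlike the cytosolic one is a single chain (chromosome 2R, 13968308 to 13969902, plus strand), had the highest log2 fold change of the 33 with the trend left in, but not with it removed, when HisRS, ValRS-m and MetRS-m stood above it. It had 39.0, 44.5 and 38.8 CPM in larvae and 50.8, 67.7 and 59.3 CPM in prepupae. All prepupal libraries lay above the larval ones, and prepupal replicate 2 was the highest. PheRS-m rose by 0.54 (SE 0.13, edgeR FDR = 0.0074), by 0.47 (edgeR FDR = 0.0056) with the trend removed, and was called in all 6 left-out fits.

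The remaining 10 mitochondrial genes were not called, with log2 fold changes from -0.44 (GluRS-m, edgeR FDR = 0.062) to 0.26 (ValRS-m, edgeR FDR = 0.19). LeuRS-m, at 17.5, 20.5 and 19.9 CPM in larvae and 18.2, 18.6 and 20.6 CPM in prepupae, was nearest to no difference with the trend left in (-0.01, and 0.23 with it removed). With the trend removed GluRS-m (-0.47, edgeR FDR = 0.044) and TyrRS-m (-0.33, edgeR FDR = 0.045) were called lower, and MetRS-m (0.51, edgeR FDR = 0.0066), ValRS-m (0.54, edgeR FDR = 0.011) and SerRS-m (0.42, edgeR FDR = 0.035) higher. When the replicate block was added to that fit, GluRS-m was no longer called (edgeR FDR = 0.053) and AlaRS-m was called higher (0.30, edgeR FDR = 0.022, against 0.058 without the block). By overlap 5 of the 15 mitochondrial genes were apart in the lower direction, 1 in the higher, and 9 overlapped. Over all tested genes the shares were 31.8% lower and 31.2% higher, so the lower count was near the share of all genes. The genes of the mitochondrial glutaminyl-tRNA route, in which GluRS-m loads glutamate that the GatCAB amidotransferase then converts, were not called: GatA had a log2 fold change of 0.18 (0.15 with the trend removed) and GatB of 0.23 (0.24), and GatC was not analysed here. Slimp, a relative of the mitochondrial serine enzyme known from flies, had 0.34 (edgeR FDR = 0.072, or 0.031 with the replicate block), and 0.27 (edgeR FDR = 0.087) with the trend removed.

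**Figure D3:**
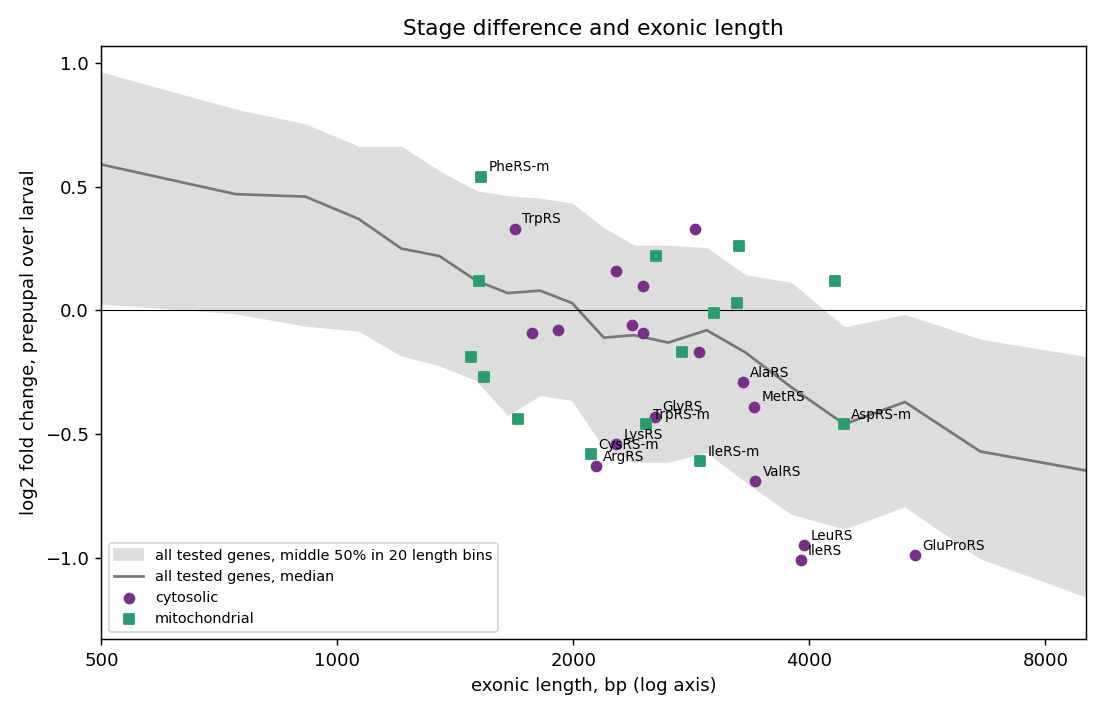
Log2 fold change, prepupal over larval, against exonic length in bp (log axis) for the cytosolic (circles) and mitochondrial (squares) synthetase genes, with called genes named. The grey line and band are the median and middle 50% of all tested genes in 20 length bins. IleRS, LeuRS, GluProRS, ArgRS, CysRS-m, IleRS-m and GluRS-m lie below the band of genes of their length. PheRS-m, HisRS, ValRS-m and MetRS-m lie above it.

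Within the synthetases, length and log2 fold change had a Spearman correlation of -0.63 over the 18 cytosolic genes and of 0.00 over the 15 mitochondrial ones. After removal of the trend the values were -0.46 and 0.40. These are descriptions over genes measured in the same 6 libraries. In both fits together 8 of the 33 genes were lower (IleRS, GluProRS, LeuRS, ValRS, ArgRS, LysRS, IleRS-m and CysRS-m) and 2 were higher (TrpRS and PheRS-m). Of the 7873 genes in the fit with the trend removed, 3208 were called in both fits. The split of these by direction was not determined, so no share of all genes can be set beside the 8 and the 2.

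Levels were compared between genes as CPM per kb of exonic length, since a longer transcript yields more counts. In larvae the cytosolic genes ranged from 19.1 CPM per kb (MetRS) to 90.3 CPM per kb (AsnRS) with a median of 35.1, and the mitochondrial ones from 3.78 CPM per kb (MetRS-m) to 26.7 CPM per kb (PheRS-m) with a median of 9.44. In prepupae the cytosolic median was 36.2 CPM per kb (LeuRS lowest at 12.1, AsnRS highest at 86.6) and the mitochondrial median 7.98 CPM per kb (GluRS-m lowest at 3.80, PheRS-m highest at 38.8). AsnRS thus stood highest in both stages, while the lowest place passed from MetRS to LeuRS among cytosolic genes. The summed level of the cytosolic genes was 2139, 2106 and 2342 CPM in larvae and 1770, 1800 and 1833 CPM in prepupae, 82.0% of the larval mean. The summed mitochondrial level was 384.6, 387.3 and 393.3 CPM against 339.5, 370.0 and 370.9 CPM, 92.7% of the larval mean. Neither sum overlapped between the stages. AspRS-m, the largest part of the mitochondrial sum, had a mean of 95.6 CPM in larvae and 69.5 CPM in prepupae. The sum itself had means of 388.4 and 360.1 CPM, so the fall of this 1 gene was close in size to that of the sum. The log2 fold change of AspRS-m was -0.07 with the length trend removed (edgeR FDR = 0.62).

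For 12 amino acids the table holds 1 cytosolic and 1 mitochondrial gene, so each library gives a ratio in which the library's scaling cancels. Per kb the cytosolic gene was the higher of the pair for 12 of 12 amino acids in each stage, from 1.24 times (Asp) to 9.56 times (Asn) in larvae. The cytosolic gene had the lower log2 fold change of its pair for 7 amino acids and the higher one for 5, with a median difference of -0.31 (range -0.95 to 0.79). With the length trend removed the split was again 7 lower, with a median difference of -0.30. The ratio was lower in every prepupal than in every larval library for 5 amino acids (Leu, Val, Met, Arg and Ile). It was higher for 3 (Cys, Asp and Trp) and overlapped for 4 (Ala, Ser, Asn and Tyr). Taken singly, 31.8% of all tested genes were apart in the lower and 31.2% in the higher direction. The share for ratios of other gene pairs was not determined.

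The leucine ratio, LeuRS over LeuRS-m in CPM, was 5.29, 4.08 and 5.05 in larvae and 2.49, 2.27 and 2.70 in prepupae, a change of -0.95 in log2. The valine ratio went from 5.52, 5.79 and 6.76 to 2.62, 2.95 and 4.001, a change of -0.94. In both pairs the cytosolic gene was called lower and the mitochondrial one was not called with the trend left in. The isoleucine ratio changed less, by -0.38 in log2 (3.20, 3.03 and 4.09 in larvae, 2.69, 2.72 and 2.45 in prepupae), since IleRS-m fell with IleRS. With the trend left in, tryptophan was the 1 pair whose genes were called in opposite directions, while with it removed TrpRS-m was not called and ValRS was lower and ValRS-m higher. The tryptophan ratio was 2.06, 1.87 and 2.32 in larvae and 3.35, 4.24 and 3.24 in prepupae (0.79 in log2). The aspartate ratio was below 1 in larvae (0.604, 0.738 and 0.572) and near 1 in prepupae (1.11, 1.02 and 0.827), a change of 0.63. GluProRS, which has no single partner, stood at 17.0, 16.7 and 23.8 times GluRS-m in larvae and 13.8, 10.6 and 14.4 times in prepupae, and at 17.1, 11.4 and 16.5 times ProRS-m in larvae and 7.11, 5.43 and 8.35 times in prepupae.

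**Figure D4:**
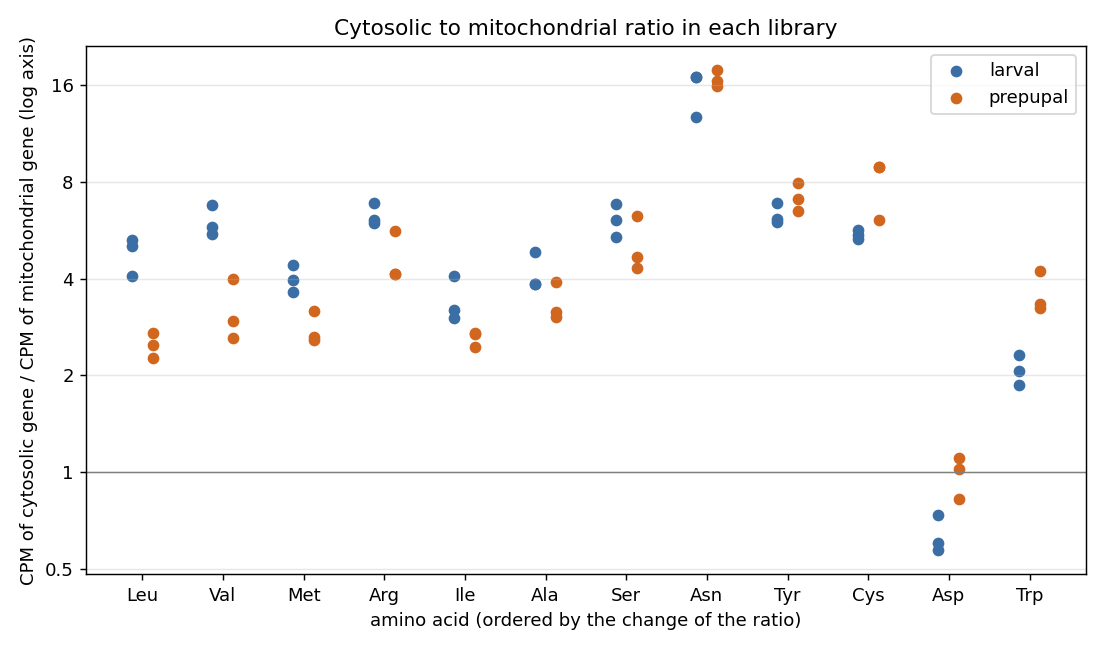
Ratio of the cytosolic to the mitochondrial gene in CPM (log axis) for the 12 amino acids with 1 gene of each kind, with 1 point per library (larval blue, prepupal orange), ordered by the change of the ratio. The prepupal points lie below the larval ones for Leu, Val, Met, Arg and Ile and above them for Cys, Asp and Trp.

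The next step of translation, in which elongation factors bring the charged tRNA to the ribosome and move it along, was followed in lists of 7 genes for each compartment. Over all tested genes 27.3% were called lower and 26.6% higher, or 22.0% and 29.3% with the trend removed, and both lists are to be read beside these shares. Of the 7 cytosolic elongation genes 3 were lower and 1 was higher, and with the trend removed 5 were lower and 0 were higher. eEF1alpha1, which carries charged tRNA to the ribosome, had 12390, 11330 and 13280 CPM in larvae and 7309, 6078 and 6779 CPM in prepupae and fell by 0.88 (SE 0.14, edgeR FDR = 0.00088). eEF2, which moves the ribosome along the mRNA, fell by 0.73 (edgeR FDR = 0.0016) and eEF1gamma, part of the factor that reloads eEF1alpha, by 0.62 (edgeR FDR = 0.0028), all 3 without overlap and all 3 also lower with the trend removed. eEF5 rose by 0.37 (edgeR FDR = 0.045), a call lost with the trend removed (0.00). The subunit genes eEF1beta (-0.36, edgeR FDR = 0.011) and eEF1delta (-0.33, edgeR FDR = 0.028) were called lower with the trend removed, with log2 fold changes of -0.08 and -0.02 before. Of 7 mitochondrial elongation and termination genes 2 were higher (mRRF1, a ribosome recycling factor, 0.51, edgeR FDR = 0.017, and mEFTs, an elongation factor, 0.34, edgeR FDR = 0.049) and 1 was lower (mEFG1, an elongation factor, -0.45, edgeR FDR = 0.016). These 3 calls were lost with the trend removed, but mEFTs was called higher when the replicate block was added to that fit (0.27, edgeR FDR = 0.041).

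Some members share exonic sequence with a neighbour, and the libraries keep no strand, so shared stretches cannot be assigned to 1 gene. By the annotation 16 of the 33 genes share 3 to 1448 bp with another gene. AspRS shares 127 bp with Nmda1, which had 9441 to 13702 counts against 1235 to 1621 for AspRS, and 1448 bp with an antisense RNA not analysed here. GluProRS shares 905 bp with another antisense RNA not analysed here, and GluRS-m shares 95 bp with Serinc (3733 to 5121 counts against 111 to 279). CysRS-m shares 302 bp with CG13016 (362 to 798 counts against 133 to 364), and ArgRS-m 325 bp with mRpS9 (755 to 1228 against 194 to 301). SerRS-m shares 356 bp with Nagk (20 to 51 counts against 430 to 693), and HisRS 255 bp with Bx (18 to 86 against 1276 to 1774). IleRS, LeuRS, ValRS, ArgRS, LysRS, TrpRS and PheRS-m share none. The lowest count of any cytosolic member was 776 (IleRS) and of any mitochondrial one 111 (GluRS-m), for which counting alone gives errors of 3.59% and 9.49%.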

How the data were processed

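GFP-positive hemocytes of larvae and prepupae were sequenced as 3 libraries each. Library preparation kept no strand. RNA was extracted with TRIzol according to the methods and with phenol and chloroform according to the labels. The authors deposited 1 table of raw counts, whole numbers of reads for each gene and library, with no normalization. The submitters' processing notes name bcl2fastq 2.20, FastQC, STAR, featureCounts and DESeq2, and the genome was dm6. Settings of the counting program: not given in the sources used here. Totals of 19228352 to 25958543 counts set the counting error, which is wider for lower counts. Libraries of the same stage differed by more than counting error alone gives (chi-square per degree of freedom of 28.6 to 99 between pairs of libraries).

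The counts were tested with edgeR 4.0.16 in R 4.3.3 (filterByExpr with a minimum count of 10, TMM factors, the quasi-likelihood F test, and an FDR by Benjamini-Hochberg below 0.05). Each SE was obtained as the absolute log2 fold change over the square root of F. CPM are counts per 1000000 scaled counts. Exonic lengths were read from a more recent Ensembl gene set for this assembly, in which 13298 of 13332 genes found (99.7%) and all 33 members had the same coordinates. The length trend was a loess of log2 CPM (prior count of 2) on length in each library with a span of 0.5, given to edgeR as an offset. Scripts were tested on simulated data.

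Every member could be named, and so could genes of the partner, elongation, amino acid response and marker lists. Members and list genes without a call were partly given by count and range only. The members and lists were chosen with earlier results of these data known. Same-numbered larval and prepupal libraries deviated from their stage means together. The correlation across 7914 genes was 0.277, 0.300 and 0.102 for replicates 1, 2 and 3, all above 0.1. Between libraries of different numbers it was -0.293 to 0.0208. The numbers may therefore pair the libraries, most weakly for replicate 3. No source says what a number stands for, and the main fit had no block because the methods name none. Calls and FDR values without mention of a block thus ignore any such pairing. The block was an alternative, as were DESeq2 size factors, total counts, upper-quartile factors, no filter, a mean count of 10, DESeq2 1.42.0, limma-voom (limma 3.58.1), an FDR of 0.01, a 2-fold minimum and leaving out each library. Motifs in promoters were not analysed here.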

Additional observations from a re-analysis of the deposited data

How the results depend on the processing

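Counts of called genes depended on the threshold and, for the weaker changes, on scaling and length. With at least 2-fold the called genes dropped from 4264 to 1580 of all genes and from 15 to 1 of the synthetases (IleRS, so 1 cytosolic and lower, with 0 cytosolic higher and 0 mitochondrial in either direction), and from 13 to 1 of the other charging, elongation and response genes. At an FDR below 0.01 the counts were 0 cytosolic higher, 3 mitochondrial of which 2 were lower, and 5 other genes. The 1 higher cytosolic gene was called by none of total counts, upper-quartile factors and no filter (0 each). With the replicate block, which pairs libraries by number, 2 cytosolic genes were higher because HisRS was added, and the block changed no other synthetase call while the length trend was left in. With the length trend removed, 4 cytosolic genes were higher with and without the block, 8 mitochondrial genes were called with and without it, 4 of these were higher without and 5 with it (GluRS-m was lost and AlaRS-m gained with the block), and 8 other genes were called. Total counts lowered the median log2 fold change of all genes from -0.03 to -0.22, that of cytosolic synthetases to -0.43 (12 lower, 0 higher) and that of mitochondrial ones to -0.37 (6 lower, 1 higher). The share of higher genes among those called went from 49.4% to 33.2%. With the length trend removed, with and without the block, these medians were -0.06 and 0.05. Leaving out each library gave 3251 to 4552 called genes, 11 to 14 synthetases, 0 to 1 cytosolic higher, 6 to 13 other genes (6 without larval replicate 1 and 7 without prepupal replicate 2), cytosolic medians of -0.25 to -0.15 (-0.15 without larval replicate 3) and mitochondrial medians of -0.22 to -0.07 (-0.07 without larval replicate 1 or 2).

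Changes of sign met only synthetases that were not called in either setting. They were, with the length trend removed and the same with the block, ThrRS (0.07), CysRS (0.10), AsnRS (0.11), LeuRS-m (0.23) and ArgRS-m (0.05, and 0.06 with the block). With total counts they were GlnRS (-0.09), AspRS (-0.04), AlaRS-m (-0.17), ProRS-m (-0.08) and MetRS-m (-0.08), and with DESeq2 or its size factors LeuRS-m (0.00). With a library left out they were SerRS (-0.13 to 0.06 over the 6 fits), LeuRS-m (-0.07 to 0.06) and AlaRS-m (-0.03 to 0.11). Over all members and alternatives other than left-out libraries, 275 values kept their direction and side of the threshold, 22 became called, 16 were no longer called and 17 changed sign. The cause of these changes was not tested. Counting error was widest for the low mitochondrial genes.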

Other observations

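Genes of the amino acid response, the program by which cells react to uncharged tRNA, did not move in 1 direction. Of 8 listed genes 2 were higher and 2 lower in prepupae, while 26.6% of all tested genes were called higher and 27.3% lower. The counts were thus close to the shares of all genes. Nmdmc, a mitochondrial enzyme of folate metabolism, rose from 47.8, 57.8 and 44.9 CPM to 128.0, 164.9 and 129.6 CPM (log2 fold change 1.49, edgeR FDR = 4.9e-05). AsnS, asparagine synthetase, rose from 77.7, 96.4 and 94.9 CPM to 126.7, 135.0 and 157.2 CPM (0.64, edgeR FDR = 0.0027), and both stayed higher with the length trend removed. Gcn2, the kinase that senses uncharged tRNA, fell by 0.45 (edgeR FDR = 0.014) and Shmt, a serine hydroxymethyltransferase, by 0.32 (edgeR FDR = 0.035), but neither was called with the trend removed (0.03 and -0.12). The transcript of crc, the fly counterpart of the transcription factor ATF4, had a log2 fold change of 0.04, which was not called, and one of 0.34 with the trend removed (edgeR FDR = 0.074, or 0.036 with the replicate block added). Thor went the other way, with -0.40 (edgeR FDR = 0.33), and -0.80 (edgeR FDR = 0.08) with the trend removed. With the block added to that fit Thor was called lower (-0.73, edgeR FDR = 0.0098). PEK and eIF2alpha, the other listed genes, were called in none of these fits.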
